A study of Mus musculus with 5 samples.

Results

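The smooth muscle contractile genes are 10 genes that encode parts of the machine with which smooth muscle cells shorten. They were picked by name, as Acta2, Actg2, Lmod1, Tagln, Cnn1, Tpm2, Myh11, Myl9, Mylk and Des, from the 54014 gene names of the deposited count table. The choice was made with their levels at 30 °C and at 4 °C known, so the difference between these groups describes the 10 genes and is not tested for them. Each tumour grew from MC38 cells, a mouse colon adenocarcinoma line, in a C57BL/6 mouse kept for 2 weeks either at 30 °C, a thermoneutral temperature (3 tumours), or at 4 °C (2 tumours). The tumours at both temperatures thus shared the cell line and the strain, and the labels name no altered gene and no drug, nor the age or sex of the mice. In the study's methods the line was implanted under the skin or in the liver, and the labels do not say which site these tumours come from. A tumour of an implanted line draws its vessels and stroma from the host, so its RNA mixes cancer cells with host cells. The study describes them as biological samples. The labels do not say whether each came from its own mouse, and p-values measure the spread between these samples.

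In smooth muscle, calcium entering the cell binds calmodulin and activates myosin light chain kinase. The kinase phosphorylates the regulatory light chain of myosin, and the myosin heads then pull on actin filaments that carry tropomyosin, calponin and transgelin. Serum response factor and its partners myocardin and the myocardin-related factors switch many of these genes on by binding a short DNA element, the CArG box. In tumours the same genes are known from the walls of arterioles and veins, from pericytes and from myofibroblasts.

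The CArG box was searched because it is the element most closely tied to these genes. Of the 10 genes, 7 (Acta2, Cnn1, Des, Lmod1, Myl9, Mylk and Tpm2) had an entry in the RefSeq promoter table (GRCm38.p6), which covers 250 bases before and 50 bases after each start. The box reads the same on both strands. It was searched exactly and with 1 departure in its central run of A or T. Acta2 and Myl9 held 2 boxes each in these windows and the other 5 held none there. Sequence outside the windows was not searched. The window of Mylk (34784700 to 34784999 on chromosome 16) lies inside the gene, whose annotated start is at 34745210. Each box is printed with 10 bases on either side, in the direction of transcription and with the box in capitals. Those of Acta2 lie on the minus strand at chr19:34255438-34255467 and chr19:34255388-34255417, with the box 84 to 75 and 34 to 25 bases before the RefSeq start. GENCODE M21 starts this transcript further upstream and places both in the untranslated first exon. Those of Myl9 lie on the plus strand at chr2:156775293-156775322 and chr2:156775355-156775384, with the box 161 to 152 and 99 to 90 bases before the start.
Acta2, distal box: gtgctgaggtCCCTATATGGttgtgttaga
Acta2, proximal box: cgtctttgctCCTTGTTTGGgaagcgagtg
Myl9, distal box: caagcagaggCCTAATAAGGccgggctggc
Myl9, proximal box: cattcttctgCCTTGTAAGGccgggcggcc
The distal box of Myl9 matches the consensus exactly, and the other 3 depart from it at 1 base. Over all 32851 windows of the table, 1.63% held an exact box, 9.98% held a box of either kind and 0.822% held at least 2. The MCAT element (CATTCC on either strand), which binds TEAD factors, was found in the windows of Acta2, Lmod1 and Mylk, against 14.7% of all windows. A match describes the letters of the window and does not show that a factor was bound.
Srf, which encodes serum response factor, has 2 exact boxes in its own promoter on the minus strand, at chr17:46556225-46556254 and chr17:46556205-46556234, and is shown for comparison, chosen after its boxes were seen.
Srf, distal box: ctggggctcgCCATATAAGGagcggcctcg
Srf, proximal box: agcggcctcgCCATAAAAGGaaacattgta
Among 175 tested genes outside the 10 with an exact box, 96 had a log2 fold change of 4 °C over 30 °C above 0 (54.9%, against 50.7% of all genes tested), with a median of 0.05. With a box of either kind, as counted for the contractile genes, it was 623 of 1224 genes (50.9%), with a median of 0.01.

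The libraries held 16191708 to 20320525 counts on named genes, and their content departed from that of a carcinoma alone. The 10 epithelial markers of the list used here summed to between 18 and 172 CPM (counts in 1000000), whereas 6 B cell markers summed to between 1100 and 3090 and 8 erythroblast markers to between 13900 and 42000. In 30 °C replicate 2, 27 pancreatic acinar genes summed to 374000 CPM, against 2550 in 4 °C replicate 2 and 19.8 to 76.8 in the other 3. All levels are therefore given as CPM scaled by the TMM method of edgeR, a scaling that is little moved by a block of abundant transcripts in 1 library. The scaling factor was 0.738 for 30 °C replicate 2 and between 1.03 and 1.13 for the other libraries. Values without 30 °C replicate 2 are given for Acta2, Tagln, Actg2 and Des, for the median of the 10 genes and for their sum. Whether the contractile genes came from tumour vessels and stroma or from other tissue in these samples was not tested.

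All 10 contractile genes passed the filter on low counts, and in all 10 the fitted level was higher at 4 °C, as in 50.7% of the 16133 genes tested. The median log2 fold change of the 10 was 1.07, against 0.01 over all genes tested. In 6 genes the mean at 4 °C was more than 2 times that at 30 °C, as in 1.69% of all genes. Both tumours at 4 °C exceeded all 3 tumours at 30 °C in 8 genes, as in 12.2% of all genes. Nothing is read from these counts, since the genes were chosen on the same contrast. In bulk RNA, more cells of a type and more RNA per cell cannot be told apart.

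**Figure D1:**
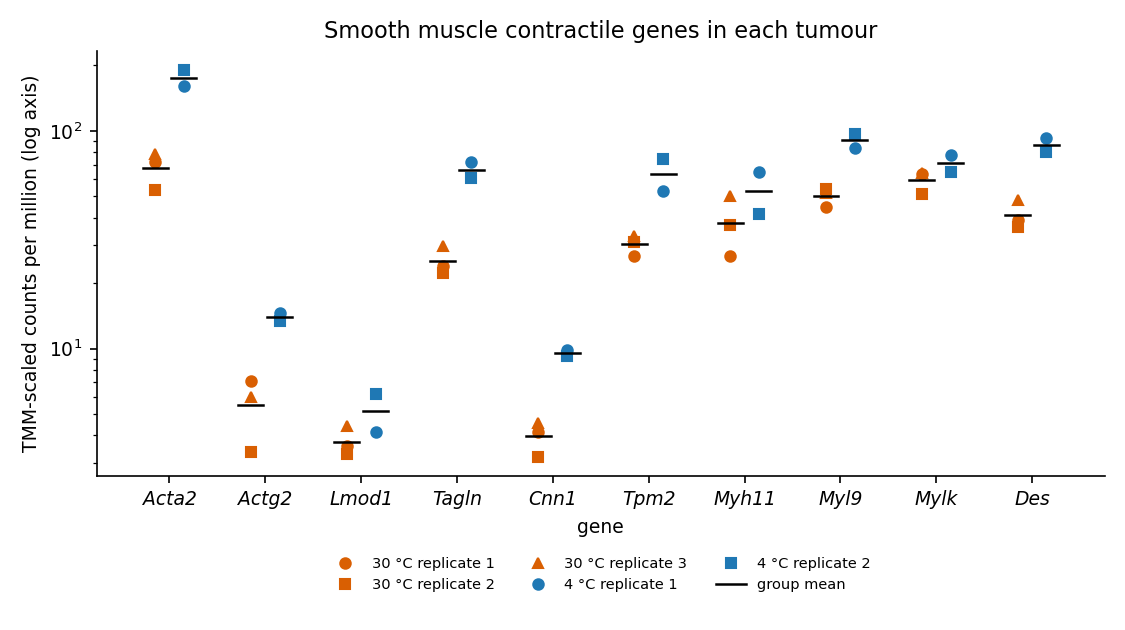
TMM-scaled CPM (log axis) of each of the 10 contractile genes (horizontal axis), with 1 point per tumour, orange for 30 °C and blue for 4 °C, and a black bar at each group mean. The blue points of Acta2, Actg2, Tagln, Cnn1, Tpm2, Myl9 and Des lie clear of the orange ones, those of Lmod1 and Myh11 overlap with them, and those of Mylk almost touch them.

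The actins form the thin filament. Acta2 encodes smooth muscle alpha-actin (chromosome 19 of GRCm38, 34241090 to 34255590, minus strand), the most used marker of vascular smooth muscle and myofibroblasts. It stood at 71.8, 53.6 and 78 CPM in the tumours at 30 °C and at 161 and 190 CPM in those at 4 °C. The lowest tumour at 4 °C was 2.06 times the highest at 30 °C. The group means were 67.8 ± 12.7 CPM (SD, n = 3) and 175 ± 20.9 CPM (SD, n = 2), a log2 fold change of 1.37. Actg2, the gamma-actin of visceral smooth muscle (chromosome 6, 83512905 to 83536265, minus strand), was scarcer, at 7.13, 3.37 and 5.98 CPM at 30 °C and 14.6 and 13.4 CPM at 4 °C. Its groups were apart as well, with a log2 fold change of 1.34, and the tumours at 30 °C varied most among the 10 genes (coefficient of variation 35.1%). The level of Acta2 was between 10.1 and 15.9 times that of Actg2 in every tumour, and the ranges of this ratio at the 2 temperatures overlapped. The coding sequences of actins are near copies of each other, and how reads shared between them were counted is not given in the sources used here.

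Lmod1 encodes leiomodin, which seeds new actin filaments in smooth muscle (chromosome 1, 135324807 to 135368065, plus strand). It stood at 3.57, 3.29 and 4.41 CPM at 30 °C and at 4.13 and 6.23 CPM at 4 °C. Only 4 °C replicate 2 lay above all tumours at 30 °C, so the groups overlapped. The log2 fold change of 0.46 moved to 0.12 without 4 °C replicate 2 and to 0.73 without 4 °C replicate 1. Lmod1 had 40 to 104 counts per library, and at 40 counts the 95% Wilson confidence interval spans 31.4% of the value to either side. Such an interval takes in the error of counting alone and not the spread between tumours. Whether amplified reads were collapsed to molecules is not given in the sources used here.

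The proteins that sit along the actin filament, transgelin, calponin and tropomyosin, showed wide gaps between the groups. Tagln, which encodes transgelin (SM22), an early marker of the smooth muscle lineage (chromosome 9, 45929619 to 45936058, minus strand), had the largest log2 fold change of the 10, at 1.39. It stood at 23.9, 22.3 and 29.6 CPM at 30 °C and at 72.2 and 60.6 CPM at 4 °C, so that the lower cold tumour was 2.04 times the highest warm one. Its group means were 25.3 ± 3.85 CPM (SD, n = 3) and 66.4 ± 8.20 CPM (SD, n = 2). On the opposite strand, Pcsk7 shares 108 exon bases and Gm48529 shares 1241 exon bases with Tagln, and the strand setting of the counting is not stated. Pcsk7 had 629, 393 and 834 counts at 30 °C and 820 and 415 at 4 °C, which overlap, and Gm48529 had 23 to 49 counts in any library against 272 to 1451 for Tagln.

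Cnn1 encodes calponin, an actin-binding protein of mature smooth muscle that slows myosin (chromosome 9, 22099216 to 22109630, plus strand). Its levels were low and the groups were apart, at 4.15, 3.20 and 4.54 CPM at 30 °C and 9.90 and 9.29 CPM at 4 °C, with a log2 fold change of 1.27. The ratio of Cnn1 to Tagln hardly moved, between 0.143 and 0.174 at 30 °C and at 0.137 and 0.153 at 4 °C. Tpm2, the beta-tropomyosin that lies in the groove of the actin filament (chromosome 4, 43514711 to 43523765, minus strand), stood at 26.5, 31.0 and 32.8 CPM at 30 °C and at 52.9 and 73.9 CPM at 4 °C. Both cold tumours were above the warm ones, but they differed between themselves, and the log2 fold change of 1.07 became 1.29 without 4 °C replicate 1 and 0.80 without 4 °C replicate 2.

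The thick filament and its switch were less uniform. Myl9, the regulatory light chain whose phosphorylation starts contraction (chromosome 2, 156775420 to 156781658, plus strand), stood at 44.7, 54.0 and 51.7 CPM at 30 °C and at 83.6 and 97.1 CPM at 4 °C. Its groups were apart, with means of 50.1 ± 4.86 CPM (SD, n = 3) and 90.3 ± 9.51 CPM (SD, n = 2) and a log2 fold change of 0.85. Myh11, the smooth muscle myosin heavy chain and the most specific marker of differentiated smooth muscle (chromosome 16, 14194535 to 14291372, minus strand), stood at 26.7, 36.9 and 50 CPM at 30 °C and at 64.7 and 41.6 CPM at 4 °C. The cold replicate 2 lay below the warm replicate 3, so the groups overlapped. Its log2 fold change of 0.49 became 0.14 without 4 °C replicate 1 and 0.76 without 4 °C replicate 2. Mylk encodes myosin light chain kinase (chromosome 16, 34745210 to 35002420, plus strand) and also a longer form found outside muscle, and gene counts do not separate the forms. It stood at 63.1, 51.3 and 64.3 CPM at 30 °C and at 77.5 and 64.5 CPM at 4 °C, with the smallest log2 fold change of the 10, 0.25. The groups touched, since 64.5 and 64.3 CPM differ by less than the counting error, and with scaling by library size alone they overlapped.

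Des encodes desmin, the intermediate filament that ties the contractile units to each other and to the cell membrane (chromosome 1, 75360329 to 75368579, plus strand). It stood at 39.0, 36.2 and 48.1 CPM at 30 °C and at 92.8 and 79.6 CPM at 4 °C. Its groups were apart, with means of 41.1 ± 6.20 CPM (SD, n = 3) and 86.2 ± 9.40 CPM (SD, n = 2) and a log2 fold change of 1.07. Desmin is also made by striated muscle, whose markers were scarce. The 13 striated markers summed to between 10.4 and 26.8 CPM, and 2 of them had 0 counts in all libraries. The skeletal actin Acta1 had 0 to 10 counts per library. Of the 4 striated markers tested, 3 had log2 fold changes above 0 and 1 below. The part of striated muscle in the level of Des was not tested.

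**Figure D2:**
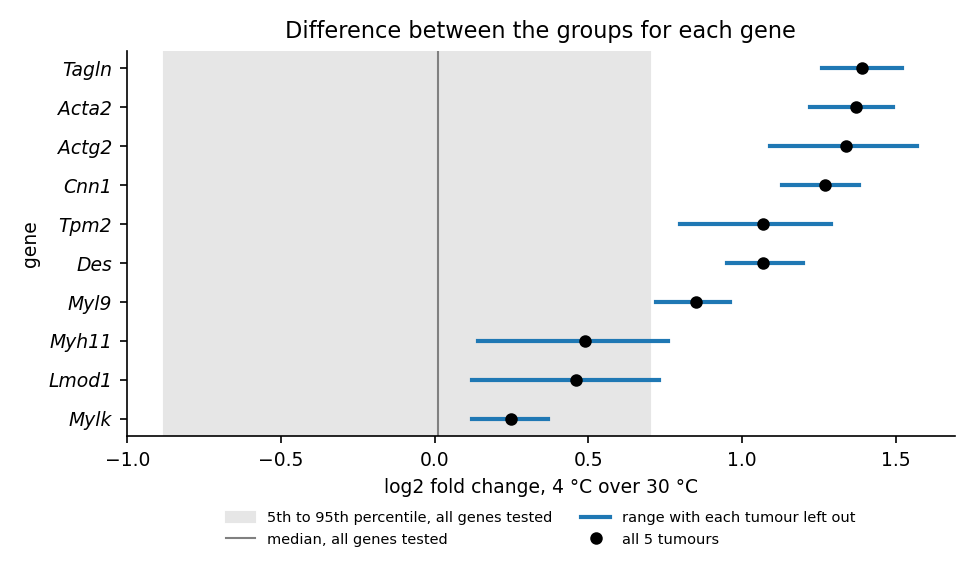
Log2 fold change of 4 °C over 30 °C (horizontal axis) for each gene, with a black point for the fit to all 5 tumours and a blue bar from the lowest to the highest value over the fits that lack 1 tumour. The grey band spans the 5th to 95th percentile of all genes tested (−0.88 to 0.70), and Mylk, Lmod1 and Myh11 have their points within it, while the other 7 lie to its right.

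The size of the difference was not the same for the 10 genes. The 7 genes Acta2, Actg2, Tagln, Cnn1, Tpm2, Myl9 and Des had log2 fold changes between 0.85 and 1.39, and Lmod1, Myh11 and Mylk had 0.46, 0.49 and 0.25. This division was seen in the values and was not tested. Leaving out 30 °C replicate 2, the library rich in acinar transcripts, gave 1.22 for Acta2, 1.30 for Tagln, 1.09 for Actg2 and 0.98 for Des, and a median of 1.03 over the 10 genes. With any 1 tumour left out, all 10 log2 fold changes stayed above 0 and the median lay between 0.98 and 1.17. Removing the acinar genes before scaling left the median at 1.07.

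Per kilobase of exon, which allows levels to be compared between genes, Myl9 and Acta2 led at both temperatures. At 30 °C, Myl9 had a mean of 43.1 CPM per kilobase and Acta2 30.9, followed by Tagln at 12.7, Des at 10.9 and Tpm2 at 10.4. The ranks below these were Mylk at 5.29, Myh11 at 4.98, Actg2 at 3.53, Cnn1 at 1.45 and Lmod1 at 0.951. At 4 °C, Acta2 had 79.9 and Myl9 77.7, which do not differ beyond the spread of the tumours, and Tagln stood at 33.4. Des and Tpm2 followed at 23 and 21.8, and Actg2, at 9.0, was above Myh11 at 7.0 and Mylk at 6.31. Exon lengths are those of all annotated exons of a gene merged, so a gene with rarely used exons, such as Mylk, is understated.

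Summed over the 10 genes, the level was 310, 295 and 369 CPM in the tumours at 30 °C and 633 and 636 CPM in those at 4 °C. The means were 325 ± 39.3 CPM (SD, n = 3) and 635 ± 2.34 CPM (SD, n = 2), 1.95 times higher at 4 °C. On the log2 scale this ratio was 0.97, and 0.89 without 30 °C replicate 2. Scaled by library size alone the sums were 334, 217 and 416 CPM at 30 °C and 684 and 656 CPM at 4 °C. Acta2 made up 18.1% to 23.1% of the sum at 30 °C and 25.4% and 29.9% at 4 °C. By contrast, the share of Mylk was 17.4% to 20.3% at 30 °C and 12.2% and 10.1% at 4 °C. These shares are parts of 1 total, so a higher share of one gene lowers the others.

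**Figure D3:**
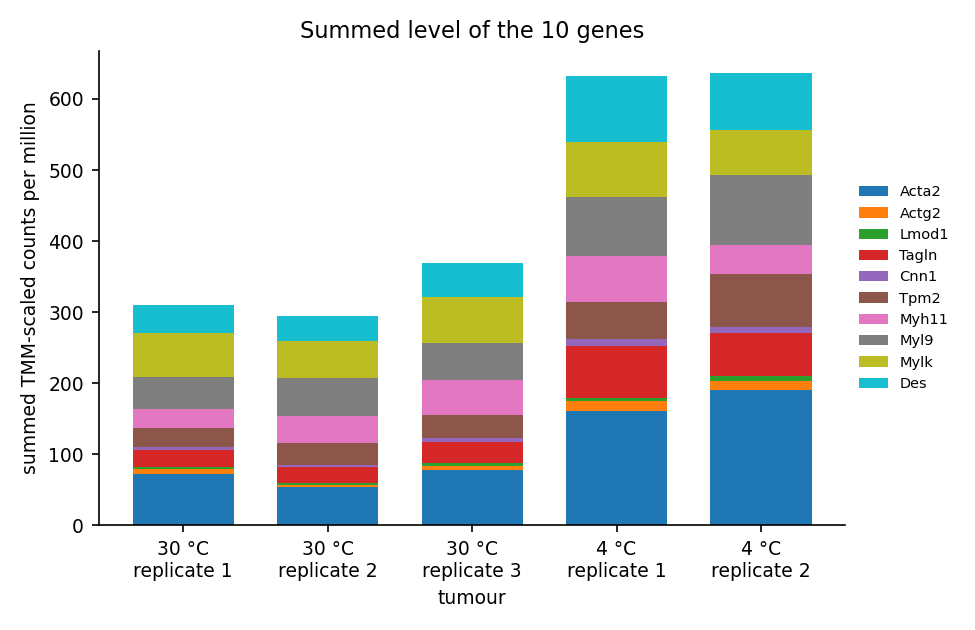
Sum of the TMM-scaled CPM of the 10 genes (vertical axis) in each tumour, stacked by gene. The 3 tumours at 30 °C reach 310, 295 and 369 CPM and the 2 at 4 °C reach 633 and 636. The Acta2 segment is the largest in every tumour except 30 °C replicate 2, where Myl9 (18.3%) and Acta2 (18.1%) are about equal.

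The near equality of the 2 sums at 4 °C hid differences in composition. Tagln, Cnn1, Actg2, Des, Myh11 and Mylk were higher in 4 °C replicate 1, and Acta2, Tpm2, Myl9 and Lmod1 were higher in 4 °C replicate 2. The ratio of Myh11 to Acta2 was 0.403 in the former and 0.219 in the latter, and 0.371 to 0.689 at 30 °C. The ratio of Tagln to Acta2 was 0.333 to 0.417 at 30 °C and 0.449 and 0.319 at 4 °C. The ratio of the kinase Mylk to its substrate Myl9 was 0.95 to 1.41 at 30 °C and 0.927 and 0.665 at 4 °C. The values 0.927 and 0.95 differ by less than the counting error, so 4 °C replicate 2 was the cold tumour that stood below the warm ones.
Among the tumours at 30 °C, replicate 3 was the highest in 8 of the 10 genes. Actg2 was highest in replicate 1 and Myl9 in replicate 2. The lowest value fell on replicate 2 in 7 genes and on replicate 1 in Tpm2, Myh11 and Myl9.

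**Figure D4:**
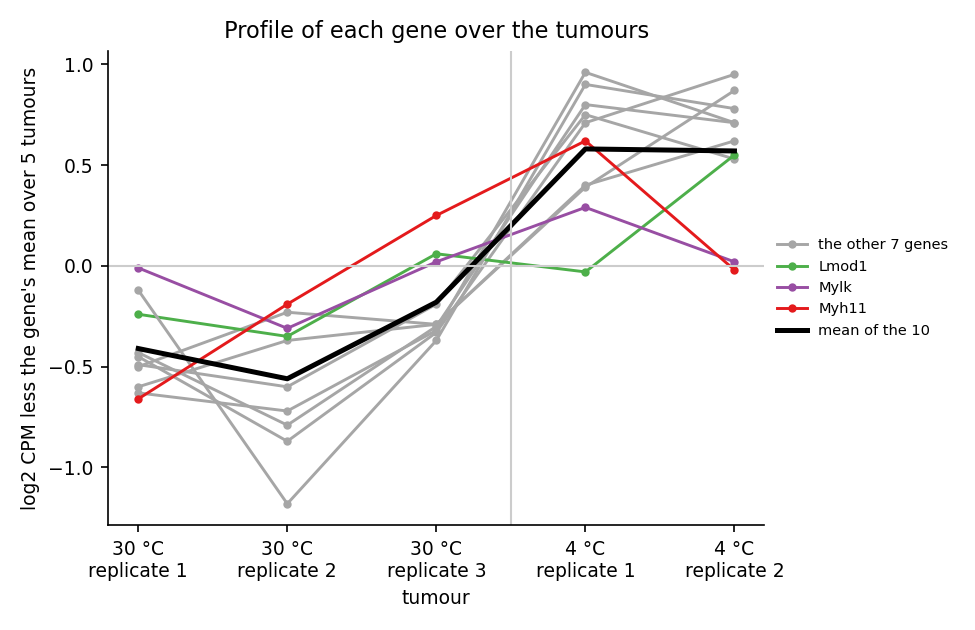
Log2 CPM of each gene less its own mean over the 5 tumours (vertical axis), by tumour. Each line joins the points of 1 gene and implies no order of the replicates, with 7 genes in grey, Lmod1, Mylk and Myh11 in colour and the mean of the 10 in black. The mean profile runs from −0.56 in 30 °C replicate 2 to 0.58 in 4 °C replicate 1.

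Genes outside the 10 were compared with the profile by the root mean square difference of their centred log2 CPM over the 5 tumours, among 11606 genes with a mean of at least 5 CPM. The 5 closest to the mean profile of the contractile genes were Cd3e, Scarf2, Cxcl13, Sit1 and Nkx2-5, with differences of 0.0723 to 0.0767, compared with 0.0900 for Des, the closest of the 10, and 0.382 for Myh11, the farthest. Cd3e, a chain of the T cell receptor complex, had 27 ± 4.49 CPM (SD, n = 3) at 30 °C and 50.1 ± 2.35 CPM (SD, n = 2) at 4 °C. Cxcl13, a chemokine that attracts B cells, had 76.3 ± 6.74 and 137 ± 0.557 CPM, and the homeobox gene Nkx2-5 had 4.57 ± 0.607 and 8.36 ± 0.636 CPM. With 5 tumours many genes share such a profile, and none of these 5 was past the threshold in the edgeR test over all genes (adjusted p = 0.69 for each).

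The question whether other genes of the contractile pathway differed between the temperatures was put to 6 lists that hold none of the 10. These lists, like the marker lists further on, were chosen with earlier results of these data known, so they are not independent of the contrast. They contain 112 genes, of which 102 passed the filter. The quasi-likelihood test of edgeR with Benjamini-Hochberg adjustment called 0 of them at an adjusted p under 0.05, and 0 of all 16133 genes (0%). At an unadjusted p under 0.05 it gave 5 of the 102 genes (4.90%), against 6.76% of all genes. Of these 5, Pdlim3, Ppp1r14a, Cnn3 and Cnn2 were higher at 4 °C (background 2.58%) and Myh10 was lower (background 4.17%). The Wald test of DESeq2 called 1 of them, Myh10, against 1.01% of the genes for which it gave an adjusted p.

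Of the 28 other genes of the contractile apparatus, 27 were tested, 21 of them with a log2 fold change above 0 and 6 below, with a median of 0.29. Over all genes tested 50.7% were above 0, which is the background for this and the counts of signs that follow. In 11 of the 27, both cold tumours exceeded all warm ones (background 12.2%), and in 0 they were below. The smallest p-values belonged to Pdlim3, a PDZ and LIM protein of the actin scaffold, Ppp1r14a, the inhibitor CPI-17 of myosin phosphatase, and Jph2, a junctophilin. Pdlim3 stood at 2.77, 3.04 and 3.49 CPM at 30 °C and at 7.41 and 6.23 CPM at 4 °C, and its log2 fold change was 1.13 with a standard error of 0.29 (adjusted p = 0.69 from edgeR). For Ppp1r14a the levels were 10.3, 10.2 and 12 CPM and 16.5 and 19.1 CPM, and the log2 fold change was 0.72 with a standard error of 0.21 (adjusted p = 0.69 from edgeR). The groups of both genes were apart, yet neither passed the adjusted threshold. The levels of the more widely used members of the apparatus differed less. Cald1 (caldesmon) had a log2 fold change of 0.28 (standard error 0.19), Smtn (smoothelin) 0.39 (standard error 0.20), Tpm1 (alpha-tropomyosin) 0.29 (standard error 0.17) and Myl6 (the essential light chain) 0.35 (standard error 0.20). Synpo2 (synaptopodin 2) ranged from 13.6 to 33.2 CPM at 30 °C and stood at 38.3 and 20.2 CPM at 4 °C, so its groups overlapped.

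The transcriptional regulators of the contractile genes showed no such gap. Of 14, 13 were tested, with 8 log2 fold changes above and 5 below 0 and a median of 0.10, and in 0 of them were the groups apart (background 23.3% in either direction). Srf stood at 56.3, 52.3 and 68.6 CPM at 30 °C and at 68.6 and 56.7 CPM at 4 °C, and its log2 fold change was 0.08 with a standard error of 0.20 (adjusted p = 0.95 from edgeR). Mrtfa, a myocardin-related factor that senses free actin, had a log2 fold change of 0.26 (standard error 0.19), and its relative Mrtfb 0.10 (standard error 0.27). The signs of Srf and Mrtfb, and of Foxf1 named next, changed with single tumours left out. Myocd, the gene of myocardin, had 3 to 8 counts per library and was not tested. Near the floor of 3 counts, it stood at 0.266, 0.329 and 0.349 CPM at 30 °C and lower, at 0.249 and 0.180 CPM, at 4 °C. The other genes with the smallest p-values were Elk4, a ternary complex factor (0.29, standard error 0.19), and Foxf1, a forkhead factor of visceral mesenchyme (0.94, standard error 0.83).

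Of 20 receptors, channels and cyclic GMP genes, 19 were tested, 14 above and 5 below 0, with a median of 0.27. Adra1d, an alpha1-adrenergic receptor through which noradrenaline constricts vessels, stood at 1.22, 1.15 and 2.14 CPM at 30 °C and at 3.03 and 2.10 CPM at 4 °C, which overlap (log2 fold change 0.76, standard error 0.44, adjusted p = 0.80 from edgeR). Rgs2, which damps the signals of such receptors, had 0.34 (standard error 0.23), and Pde5a, which degrades cyclic GMP, −0.49 (standard error 0.39). Of 14 genes of the TGF-beta pathway, an inducer of contractile genes in fibroblasts, 11 were above and 3 below 0, with a median of 0.15. Tgfb1 stood at 206 to 258 CPM at 30 °C and at 259 and 293 CPM at 4 °C, which gives 0.22 with a standard error of 0.17 (adjusted p = 0.86 from edgeR), and Tgfb2 and Smad4 had 0.41 (standard error 0.37) and 0.24 (standard error 0.23).

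The non-muscle and striated relatives of the 10 genes were measured next to them. Of 23, 16 were tested, with 12 log2 fold changes above and 4 below 0 and a median of 0.27. Myh10, the non-muscle myosin heavy chain IIB, was the 1 of the 5 genes that was lower at 4 °C. It stood at 66.6, 108 and 90.6 CPM at 30 °C and at 37.0 and 29.0 CPM at 4 °C, and its groups were apart. Its log2 fold change of −1.42 (standard error 0.26) had an adjusted p of 0.69 with edgeR and of 0.0012 with DESeq2. The non-muscle calponins Cnn3 and Cnn2 were higher in both cold tumours, with log2 fold changes of 0.68 (standard error 0.21, adjusted p = 0.69 from edgeR) and 0.47 (standard error 0.18, adjusted p = 0.72), smaller than the 1.27 of Cnn1. The cytoplasmic actins did not separate the groups, with Actb between 3230 and 5220 CPM at 30 °C and at 4060 and 5730 CPM at 4 °C, and Actg1 between 1030 and 1320 and at 1280 and 1240 CPM. Tagln2, the transgelin of blood and other non-muscle cells, ranged from 233 to 341 CPM at 30 °C and stood at 275 and 402 CPM at 4 °C. Vim (vimentin) had a log2 fold change of 0.48 (standard error 0.37).

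Markers of cells that can carry contractile genes were summed in each tumour. The 10 pericyte markers reached 164, 111 and 132 CPM at 30 °C and 165 and 168 CPM at 4 °C, led by Pdgfrb. Of the 9 tested, 8 had log2 fold changes above 0, with a median of 0.42. In 4 of these 9 the groups were apart and higher at 4 °C (background 12.2%), and in 0 lower. Rgs5 ranged from 7.29 to 14.7 CPM at 30 °C and stood at 12.5 and 11.6 CPM at 4 °C, and Cspg4 (NG2) had 3 to 41 counts per library. The 12 fibroblast markers reached 1180, 635 and 578 CPM at 30 °C and 685 and 1470 CPM at 4 °C. Of these 12, 9 had log2 fold changes above 0, with a median of 0.38, and in 3 the groups were apart and higher at 4 °C (background 12.2%), in 0 lower. Col1a1 among them stood at 79.7 to 161 CPM at 30 °C and at 76.5 and 280 CPM at 4 °C. The 10 endothelial markers reached 345, 424 and 509 CPM at 30 °C and 500 and 402 CPM at 4 °C, and Pecam1 among them had a log2 fold change of 0.16 (standard error 0.24). In each of these lists 0 genes were called by edgeR. At an unadjusted p under 0.05 there were 2 of the 9 tested in the pericyte list (Kcnj8 and Gja4). There were also 2 of 12 in the fibroblast list (Thy1 and S100a4) and 1 of 10 in the endothelial list (Cldn5). Each of these genes was higher at 4 °C (background 2.58%) and is named for its value. The Wald test of DESeq2 called 1 of them, Thy1 (background 1.01%). A listed gene can also be made by other cells, and which cells made these was not tested.
The sum of the contractile genes was 1.90, 2.67 and 2.80 times that of the pericyte markers at 30 °C and 3.83 and 3.80 times at 4 °C. Relative to the endothelial markers it was 0.901, 0.696 and 0.726 at 30 °C and 1.27 and 1.58 at 4 °C. Relative to the fibroblast markers it was 0.262 to 0.639 and 0.923 and 0.432, which overlap. The 10 genes were chosen on this contrast, so a higher ratio at 4 °C can follow from that choice, and nothing is read from it.

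Markers of blood cells and of the mesothelium were summed in the same way. The 6 B cell markers summed to 1100, 1560 and 2720 CPM at 30 °C and to 3090 and 2740 CPM at 4 °C. In 6 of 6 the log2 fold change was above 0 (50.7% of all genes), with a median of 0.71. The 8 neutrophil markers summed to 12200, 8340 and 2860 CPM at 30 °C and to 2430 and 3930 CPM at 4 °C, and in 8 of 8 the log2 fold change was below 0. Platelets, which are rich in Myl9, gave no gap in the same direction, with 9 markers summing to 325 to 540 CPM at 30 °C and to 333 and 413 CPM at 4 °C. The 6 mesothelial markers summed to between 6.85 and 17.6 CPM in all tumours. The part of these cells in the levels of the contractile genes was not tested.

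**Figure D5:**
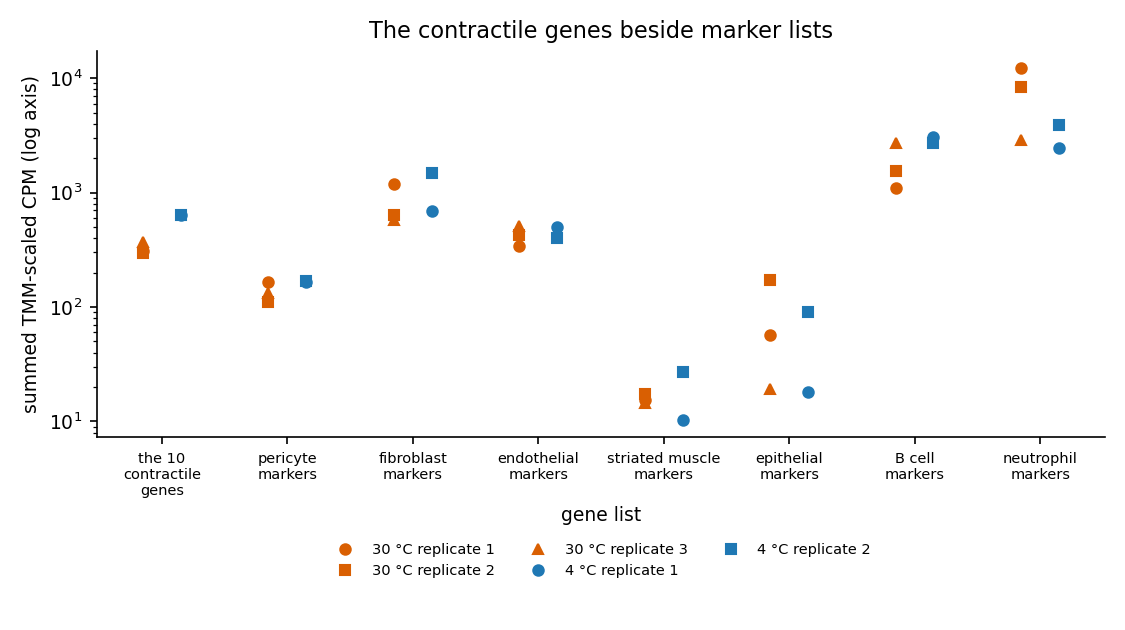
Summed TMM-scaled CPM (log axis) of the 10 contractile genes and of 7 marker lists (horizontal axis) in each tumour, orange for 30 °C and blue for 4 °C. The contractile genes lie at 295 to 369 CPM at 30 °C and at 633 and 636 CPM at 4 °C, the pericyte and B cell sums are also higher in both cold tumours, by a narrow margin over the highest warm one, and the endothelial, fibroblast, striated muscle, epithelial and neutrophil sums overlap between the groups.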

How the data were processed

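The table deposited by the authors gives raw counts per gene symbol. The study's methods name featureCounts with the annotation Gencode vM19 for counting aligned reads. The submitters' processing notes name fastp, HISAT and RSEM and the build GRCm38, without their order. Which program gave the deposited counts is not stated. The handling of shared reads and strand is not given in the sources used here. The 333 unnamed rows (at most 0.0170% of counts) were left out, and of 97 repeated symbols the most abundant row was used. Genes were filtered with filterByExpr and scaled by TMM, and groups compared with the quasi-likelihood F-test of edgeR 4.0.16 (R 4.3.3) with Benjamini-Hochberg adjustment over 16133 genes, with DESeq2 1.42.0 as an alternative. Log2 CPM used a prior count of 2, and 3 counts (0.148 to 0.185 CPM) were the floor. Positions and exon lengths are from GENCODE M21. The fits were also run on simulated counts with large changes of equal size and the same relative spread in every gene. Such counts are simpler than these, so the power of the tests in these tumours was not measured. Within groups, no tumours agreed within sampling noise (chi-square per degree of freedom 56.8 to 528).

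The 10 genes and all lists were chosen with earlier results of these data known. Named are the 10 genes, the 3 smallest p-values of each related list, further genes fixed by name (such as Srf, Cald1 and Actb) and the 5 nearest profiles. Of the 6 related lists, 1 entered the joint counts and is not reported on its own here.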

Additional observations from a re-analysis of the deposited data

How the results depend on the processing

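The count of genes called, 0 with edgeR, was 118 with the Wald test of DESeq2, 8 with scaling by library size alone, 44 with the replicate block and 1090 at an unadjusted p under 0.05, and 0 under the other alternatives. In the related lists it was 1 with DESeq2 and 5 at an unadjusted p under 0.05. For these higher counts the cause was not tested. The replicate numbers are not known to pair the tumours. Deviations of tumours with the same number correlated at −0.25 for number 1 and 0.26 for number 2. The block gave a median of 1.16 for the contractile genes.

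The number of contractile genes higher at 4 °C was 10 under every alternative run. Their median and the log2 ratio of their sums (0.97) moved by less than the SD of the tumours at 30 °C under every alternative run for them. The number with groups apart was 7 with library size alone, by the overlap of Mylk, and 8 to 10 with a tumour left out. Library size alone also moved the median of all genes to 0.11. Leaving out each tumour changed the sign of 11 related genes, none past the threshold: Actb (−0.03 to 0.48), Actg1 (−0.08 to 0.10), Col1a1 (−0.50 to 1.39), Foxf1 (−0.07 to 1.90), Mrtfb (−0.12 to 0.33), Pdgfrb (−0.00038 to 0.87), Smad4 (−0.01 to 0.43), Srf (−0.06 to 0.21), Synpo2 (−0.16 to 0.77), Tagln2 (−0.01 to 0.56) and Vim (−0.06 to 0.87). Without one tumour at 4 °C the other is assumed to vary like the tumours at 30 °C. Depth limits Lmod1, Cnn1 and Actg2, whose lowest counts were 40, 39 and 41.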
